A study of Mus musculus with 6 samples.

Results

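The genes described here carry glucose from uptake to lactate, set how much pyruvate enters mitochondria, and run the pentose phosphate branch. The list of 37 genes was drawn up by function, from 22 genes of glucose transport and glycolysis to 4 of lactate formation and export, 4 pyruvate dehydrogenase kinases and 7 of the pentose phosphate pathway. A gene counted as measured when at least 1 probe set was annotated to it and to no other symbol, and the probe set with the highest mean over the 6 arrays stood for it. By that rule 31 of the 37 genes had a value, among 22180 genes on the arrays. Gpi1 (glucose phosphate isomerase), Pfkfb1, Eno1 (the main enolase) and G6pdx (the entry enzyme of the pentose phosphate pathway) had no probe set paired with their symbol in the annotation used here. Aldoa (the main aldolase) and Tkt (transketolase) were covered only by probe sets annotated to several genes, so all 6 were left without a value.

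The arrays measured bulk RNA of mouse colorectal tumours grown after injection into white adipose tissue or into non-adipose tissue. Each site had 3 tumours, 1 for each of 3 mice, collected when they measured 1 to 1.5 cm3. The labels name no cell line, mouse strain, age or anatomical injection site, and list no genotype or drug for either group. Growth to a common size means that the comparison is of tumours matched for volume and not for time since injection. In such bulk samples fewer cells of a type and less RNA per cell cannot be told apart.

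Glycolysis splits glucose into pyruvate in the cytosol, and many tumours turn most of that pyruvate into lactate even when oxygen is present. Hypoxia-inducible factors and Myc are known to raise transcription of many of these genes, and hypoxia-inducible factors also raise Pdk1, whose product phosphorylates and shuts pyruvate dehydrogenase. The pentose phosphate pathway leaves glycolysis at its early steps and supplies NADPH and ribose for nucleotides.

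Values are the submitters' log2 signals, and a difference is the mean of the white adipose tumours minus that of the non-adipose tumours, so that a negative value means a lower signal in white adipose. The arrays correlated with each other at 0.983 to 0.995 over the 22180 genes, their medians over all probe sets lay between 5.66 and 5.69, and no pair of arrays was identical. Markers of other tissues were uneven. The mean of 6 of 7 skin epithelium markers was 9.29 in white adipose replicate 1, against 4.97 and 5.07 in white adipose replicates 2 and 3 and 5.45, 5.04 and 6.79 in non-adipose replicates 1 to 3. The mean of 11 of 11 skeletal muscle markers was 5.65, 5.60 and 5.54 in the white adipose tumours, against 6.32, 5.50 and 6.92 in the non-adipose tumours. The mean of 9 of 11 adipocyte markers was 5.42, 5.50 and 5.88 in the white adipose tumours, against 5.59, 5.56 and 5.63 in the non-adipose tumours, and Adipoq, the adipocyte hormone adiponectin, was dim, with a mean signal at percentile 15.6 of the 22180 genes. The mean of 11 of 11 colorectal epithelial markers was 6.22, 6.08 and 6.20 in the white adipose tumours, against 6.04, 6.17 and 6.15 in the non-adipose tumours. Their percentiles ran from 23.3 to 96.1, with a median of 38.9. The keratins Krt8 and Krt18 lay at 96.1 and 94.9 and Cdh1 at 66.9, while Epcam, Cdx2, Vil1 and Krt20 lay at 29.1, 38.9, 23.3 and 24.8. No marker has a defined zero on this scale. The part of these tissues in the results that follow was not tested beyond leaving out each tumour in turn.

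For most of the genes the spread between tumours of 1 site was larger than the difference between sites, as it was for most genes on the arrays. None of the 31 genes passed an adjusted p of 0.05 in limma with Benjamini-Hochberg adjustment over all genes, where 0 of 22180 genes passed (0%) and the smallest adjusted p was 0.936. At an unadjusted limma p under 0.05, 0 of the 31 genes were lower and 0 were higher, against 2.13% of all genes lower and 1.66% higher. The mean was lower in white adipose for 20 of the 31 genes (64.5%), against 50.2% of all genes, and higher for 11 (35.5%), against 49.8% of all genes. The median difference was -0.087 over the 31 genes and -0.00043 over all genes. Single tumours moved it. For the 31 genes it was -0.031 when non-adipose replicate 3 was left out and -0.051 when white adipose replicate 2 was left out, and leaving out non-adipose replicate 2 gave -0.12. All 3 white adipose tumours lay below all 3 non-adipose tumours for Tpi1 and Gapdh (6.45% of the 31), against 3.97% of all genes. They lay above for Pfkfb2 alone (3.23% of the 31), against 3.34% of all genes. The 95% interval of the difference left out a change of 1.5-fold in either direction for 21 of the 31 genes (67.7%), against 86.1% of all genes. It left out 2-fold for 27 (87.1%), against 96.6% of all genes. Among the 31 genes the intervals were widest for Slc2a1, Pdk1 and Pfkfb3.

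**Figure D1:**
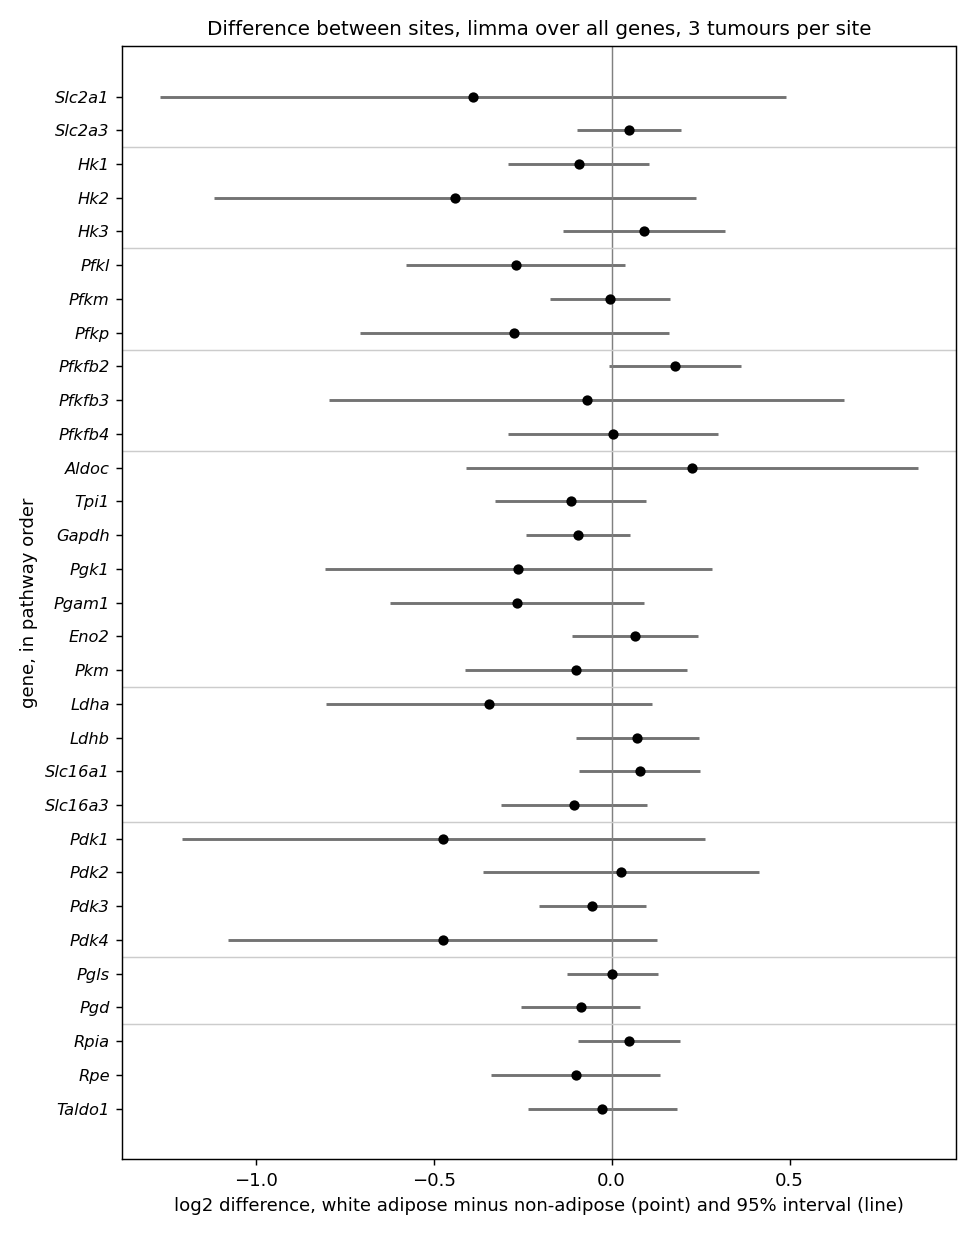
Difference in mean log2 signal of each measured gene, white adipose minus non-adipose (horizontal axis, log2), as a point with its 95% limma interval as a line. Genes run down the page in pathway order, and grey lines separate the steps; every interval includes 0, and the points lie between -0.47 and 0.23.

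Glucose entry was measured by 2 transporters and 3 hexokinases. Slc2a1, the basal glucose transporter of most tumours, had log2 signals of 10.90, 9.49 and 10.06 in the white adipose tumours, against 10.79, 10.21 and 10.61 in the non-adipose tumours. The highest and the lowest of the 6 values both came from white adipose, so the sites overlapped completely. The difference was -0.39 ± 0.36 (SE, n = 3 each, limma, adjusted p = 0.936), with a 95% interval of -1.27 to 0.49. A second, dimmer Slc2a1 probe set, with means of 6.13 in white adipose and 6.24 in non-adipose tumours, differed by -0.11. Slc2a3, the high-affinity transporter of neurons and some leukocytes, lay between 5.46 and 5.55 in white adipose and between 5.39 and 5.46 in non-adipose tumours, a difference of 0.050 ± 0.060. Its probe set gave exactly the same value on 3 arrays, white adipose replicates 2 and 3 and non-adipose replicate 2.

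Hexokinases trap glucose in the cell by phosphorylating it. Hk2, the hexokinase that many tumours induce, read 8.61, 7.89 and 8.45 in the white adipose tumours, against 9.07, 8.24 and 8.95 in the non-adipose tumours. Replicate 2 was the low tumour at each site, and the groups overlapped because non-adipose replicate 2 lay below 2 of the white adipose tumours. The difference of -0.44 ± 0.28 had an interval of -1.12 to 0.24 (limma, adjusted p = 0.936). Hk1, the hexokinase of most resting tissues, spanned 7.81 to 7.90 in white adipose and 7.87 to 8.11 in non-adipose tumours, and its difference was -0.093 ± 0.082. Hk3, a hexokinase of myeloid cells, spanned 6.49 to 6.59 in white adipose and 6.32 to 6.62 in non-adipose tumours (difference 0.091 ± 0.093). The intervals of Hk1 and Hk3 left out a change of 1.5-fold, which that of Hk2 did not.

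Phosphofructokinase commits the sugar to glycolysis, and all 3 of its subunit genes were measured. Pfkl, the liver-type subunit, read 8.64, 8.20 and 8.47 in white adipose, against 8.80, 8.58 and 8.74 in non-adipose tumours. Only white adipose replicate 1 reached into the non-adipose range. Its difference was -0.27 ± 0.13, with an interval of -0.58 to 0.039 and a limma adjusted p of 0.936. Pfkp, the platelet-type subunit common in tumours, read 9.55, 8.94 and 9.41 in white adipose, against 9.77, 9.44 and 9.51 in non-adipose tumours (difference -0.27 ± 0.18). Pfkm, the muscle-type subunit, differed by -0.0047 ± 0.069 and stayed within 6.45 to 6.62 in white adipose and 6.52 to 6.61 in non-adipose tumours. The non-adipose tumours 1 and 3 had the higher muscle marker means given above, and the part of muscle in Pfkm was not tested.

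The bifunctional PFKFB enzymes make and remove the sugar phosphate that activates phosphofructokinase. Pfkfb2, the form best known from heart, was the only gene of the 31 with all white adipose values above all non-adipose values. It read 7.04, 7.02 and 7.08 in white adipose, against 6.81, 6.79 and 7.0001 in non-adipose tumours. The lowest white adipose value was close to the highest non-adipose value, and the difference of 0.18 ± 0.076 had an interval of -0.0075 to 0.36 (limma, adjusted p = 0.936). Pfkfb3, the inducible form of proliferating and hypoxic cells, gave exactly 6.71 in all 3 white adipose tumours, against 6.996, 6.07 and 7.27 in the non-adipose tumours. An SD of 0 among separate tumours is not a measure of their biological spread, and such flat readings within white adipose occurred for 1.49% of all genes. Its difference was -0.070 ± 0.30. The mean of 6 of 6 neutrophil markers was 4.85, 5.15 and 5.18 in white adipose, against 5.78, 4.80 and 5.65 in non-adipose tumours, where it was low in the same replicate 2 as Pfkfb3, and the part of neutrophils in Pfkfb3 was not tested. Pfkfb4, a further hypoxia-responsive form, read 6.84, 7.28 and 7.13 in white adipose, against 7.005, 7.17 and 7.06 in non-adipose tumours (difference 0.0033 ± 0.12).

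From aldolase to pyruvate kinase 7 of 9 genes were measured, and 5 of the 7 had a lower mean in white adipose, with a median difference of -0.099. Gapdh, the dehydrogenase that reduces NAD in glycolysis, was the brightest of the 31 probe sets at percentile 99.9 of all genes. It read 12.75, 12.67 and 12.63 in white adipose, against 12.80, 12.76 and 12.78 in non-adipose tumours. The groups did not overlap, though the highest white adipose and the lowest non-adipose tumour were nearly equal, and the difference was -0.096 ± 0.060 (limma, adjusted p = 0.936). Gapdh has many near-identical processed copies in the mouse genome, and 2 further probe sets were annotated to it. The brighter, with means of 12.63 in white adipose and 12.74 in non-adipose tumours, differed by -0.11. The dimmer, with means of 8.88 in white adipose and 8.77 in non-adipose tumours, differed by 0.11, so the direction is uncertain.

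Tpi1, the isomerase that joins both arms of the split sugar, read 10.70, 10.43 and 10.68 in white adipose, against 10.73, 10.71 and 10.73 in non-adipose tumours. The non-adipose tumours were nearly identical (SD 0.010) and the white adipose mean was set apart mainly by replicate 2, with a difference of -0.11 ± 0.087. Pgk1, the kinase that makes the first ATP of the pathway, read 11.57, 10.77 and 11.26 in white adipose, against 11.73, 11.33 and 11.33 in non-adipose tumours. White adipose replicate 1 lay above 2 of the non-adipose tumours, and the difference was -0.26 ± 0.22, with an interval of -0.81 to 0.28. Pgam1, the mutase of most tissues, read 10.28, 9.77 and 10.04 in white adipose, against 10.47, 10.20 and 10.23 in non-adipose tumours. Again white adipose replicate 2 was lowest and replicate 1 overlapped the non-adipose tumours (difference -0.27 ± 0.15, limma, adjusted p = 0.936). A second Pgam1 probe set differed by -0.053.

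Pkm, the pyruvate kinase gene of non-hepatic cells, read 11.86, 11.39 and 11.63 in white adipose, against 11.75, 11.63 and 11.79 in non-adipose tumours. Both extremes belonged to white adipose, and the difference was -0.10 ± 0.13. The value is for the whole gene and does not separate its splice forms. Aldoc, the brain-type aldolase, differed by 0.23 ± 0.26, with values of 6.18, 6.74 and 6.83 in white adipose, against 6.01, 6.24 and 6.82 in non-adipose tumours. Replicate 3 was highest at both sites, so the sites overlapped, and the difference was 0.053 without non-adipose replicate 1 and 0.46 without non-adipose replicate 3. Eno2, the neuronal-type enolase, spanned 6.59 to 6.70 in white adipose and 6.48 to 6.66 in non-adipose tumours (difference 0.065 ± 0.073).

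**Figure D2:**
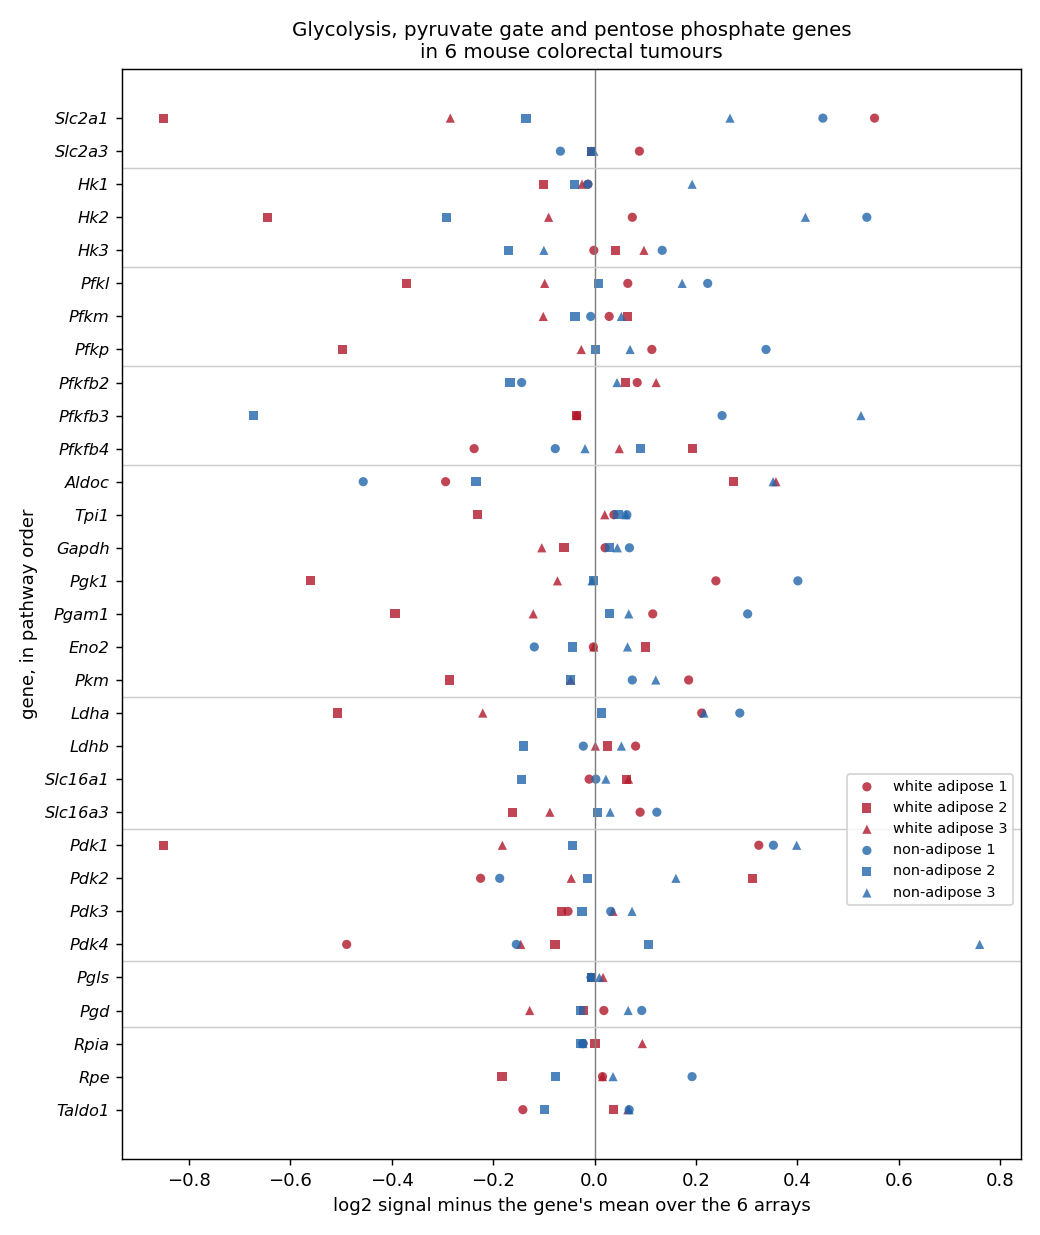
Log2 signal of each measured gene in each tumour minus that gene's mean over the 6 arrays (horizontal axis, log2), with genes down the page in pathway order. Each point is 1 tumour, red for white adipose and blue for non-adipose, and its shape gives the replicate number; white adipose replicate 2 (red square) is the lowest point for 14 of the 31 genes, and Pgls, Slc2a3 and Rpia are nearly level.

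Lactate formation and export were measured by 4 of 4 genes, of which 2 were lower on average in white adipose and 2 higher (median difference -0.017). Ldha encodes the lactate dehydrogenase subunit that favours lactate formation. It read 8.79, 8.07 and 8.36 in white adipose, against 8.87, 8.59 and 8.80 in non-adipose tumours. White adipose replicates 2 and 3 lay below every non-adipose tumour and replicate 1 lay among them. The difference was -0.34 ± 0.19, with an interval of -0.80 to 0.11 (limma, adjusted p = 0.936). Ldhb, the subunit that favours lactate use, was dim at percentile 20.2 of all genes and spanned 4.47 to 4.55 in white adipose and 4.33 to 4.53 in non-adipose tumours (difference 0.073 ± 0.071). Slc16a1, the monocarboxylate transporter found in most cells, was bright and level, at 10.04, 10.12 and 10.12 in white adipose, against 10.06, 9.91 and 10.08 in non-adipose tumours (difference 0.079 ± 0.070). Slc16a3, the hypoxia-inducible lactate exporter, read 6.81, 6.56 and 6.64 in white adipose, against 6.85, 6.73 and 6.75 in non-adipose tumours. Its white adipose replicates 2 and 3 lay below every non-adipose tumour, and the difference was -0.11 ± 0.084.

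Pyruvate dehydrogenase kinases close the gate between glycolysis and the mitochondrial citrate cycle, and 3 of the 4 had a lower mean in white adipose (median difference -0.26). Pdk1 read 8.21, 7.04 and 7.70 in white adipose, against 8.24, 7.84 and 8.28 in non-adipose tumours. White adipose replicate 1 stood level with the highest non-adipose tumours while replicates 2 and 3 lay below all of them. The difference was -0.47 ± 0.30, with an interval of -1.21 to 0.26. A second, separate Pdk1 probe set differed by -0.12, but it was dim, with means of 3.11 in white adipose and 3.23 in non-adipose tumours. Pdk4, the form induced by fasting and fatty acids in muscle and heart, read 4.56, 4.97 and 4.90 in white adipose, against 4.90, 5.16 and 5.81 in non-adipose tumours. Its non-adipose mean rested on replicate 3, the tumour with the highest skeletal muscle marker mean, and the part of muscle in it was not tested. The difference was -0.47 ± 0.25 (limma, adjusted p = 0.936) on a dim probe set at percentile 31.4, and -0.21 when non-adipose replicate 3 was left out. Pdk2, the widespread kinase, differed by 0.027 ± 0.16, with white adipose values of 6.57, 7.10 and 6.75, against 6.60, 6.78 and 6.95 in non-adipose tumours. Pdk3 spanned 8.48 to 8.58 in white adipose and 8.52 to 8.62 in non-adipose tumours, a difference of -0.054 ± 0.062.

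Of the pentose phosphate genes, 3 of the 5 measured had a lower mean in white adipose (median difference -0.026). Their ranges over the 6 arrays ran from 0.023 for Pgls to 0.37 for Rpe, against a median range of 0.35 over all genes. All 5 had intervals that left out a change of 1.5-fold, as did 86.1% of all genes, with bounds between -0.34 and 0.19. Pgd, the enzyme of the second NADPH-forming step, read 9.75, 9.71 and 9.60 in white adipose, against 9.83, 9.70 and 9.80 in non-adipose tumours (difference -0.087 ± 0.069). Pgls, the lactonase between the NADPH-forming steps, differed by 0.0025 ± 0.052. It gave the same value on 4 arrays. In the non-oxidative arm, Rpe, the epimerase, read 8.60, 8.40 and 8.60 in white adipose, against 8.77, 8.50 and 8.62 in non-adipose tumours (difference -0.10 ± 0.097). Rpia, the isomerase that yields ribose phosphate, spanned 7.23 to 7.35 in white adipose and read 7.23 in each non-adipose tumour, a difference of 0.048 ± 0.059. Taldo1, the transaldolase, spanned 7.95 to 8.16 in white adipose and 7.99 to 8.16 in non-adipose tumours (difference -0.026 ± 0.086). Equal values on 2 or more arrays occurred for 8 of the 31 genes (25.8%), namely Slc2a3, Hk1, Pfkfb3, Pkm, Pgls, Rpia, Rpe and Taldo1, against 35.3% of all genes.

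Many of the genes shared an order of tumours. White adipose replicate 2 was the lowest of the 6 arrays for 14 of the 31 genes (45.2%), against 15.6% of all genes. These were Slc2a1, Hk1, Hk2, Pfkl, Pfkp, Tpi1, Pgk1, Pgam1, Pkm, Ldha, Slc16a3, Pdk1, Pdk3 and Rpe. Non-adipose replicate 1 was the highest array for 13 of the 31 genes (41.9%), against 14.9% of all genes. In 12 of the 14 genes, white adipose replicate 3 lay below replicate 1. Replicate 2 was lowest in all 14 by their choice, so replicate 3 then lay between the other white adipose tumours. The share over all genes was not counted. Some markers of stromal and myeloid cells, singled out after their values were seen, had the opposite extremes. Lum, a matrix proteoglycan of fibroblasts, read 10.10, 11.35 and 10.70 in white adipose, against 9.32, 9.38 and 10.48 in non-adipose tumours, and Pdgfra, Dcn and the myeloid lysozyme Lyz2 were also highest in white adipose replicate 2 and lowest in non-adipose replicate 1. Other markers of the same lists did not share these extremes. The fibroblast markers Col1a1, Col1a2 and Thy1 were highest in white adipose replicate 1. Col1a2 and the myeloid markers Itgam and Cd14 were lowest in white adipose replicate 2. The mean of 6 of 6 fibroblast markers was 10.39, 10.11 and 9.94 in white adipose and 9.79, 9.91 and 10.10 in non-adipose tumours, and that of 9 of 9 myeloid markers was 8.87, 9.09 and 9.10 in white adipose and 8.92, 8.86 and 9.16 in non-adipose tumours. The mean of 6 of 6 endothelial markers spanned 6.98 to 7.11 in white adipose and 6.90 to 7.24 in non-adipose tumours, and that of 5 of 5 neuronal markers spanned 5.82 to 6.08 in white adipose and 5.95 to 6.01 in non-adipose tumours. The part of these cells in the order of the pathway genes was not tested. Over the 14 genes, which were singled out after their values were seen and are given without a test, the array means were 9.35, 8.80 and 9.13 in white adipose and 9.45, 9.17 and 9.36 in non-adipose tumours. Over the other 17 genes, left by the same choice, the array means were 7.22, 7.35 and 7.31 in white adipose and 7.25, 7.20 and 7.41 in non-adipose tumours. Their median difference was 0.027. All of the 14 had a lower mean in white adipose, so the sorting itself tends to raise the median of the other 17. The contrast between these sets therefore cannot show that the pathway holds separate groups of genes.

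Within white adipose, replicates 1 and 2 stood far apart for several genes. Replicate 1 exceeded replicate 2 by 2.64-fold for Slc2a1 and 2.26-fold for Pdk1. The same fold was 1.74 for Pgk1, 1.65 for Hk2, 1.65 for Ldha and 1.53 for Pfkp. Replicate 1 lay above replicate 2 by more than 0.25 log2 units for 11 of the 31 genes (35.5%), against 14.3% of all genes, and the opposite held for 4 (12.9%), against 15.9%. Leaving out white adipose replicate 1, the tumour with the high skin epithelium markers, gave 6 of the 31 genes with a lower mean at an unadjusted limma p under 0.05, against 4.42% of all genes, with adjusted p-values of at least 0.571. These were Slc2a1 (-0.76), Pfkl (-0.37), Pgam1 (-0.39), Ldha (-0.54), Slc16a3 (-0.18) and Pdk1 (-0.75). Leaving out white adipose replicate 2 gave none, and the differences became -0.060 for Slc2a1, -0.048 for Pgk1, -0.23 for Hk2, -0.18 for Ldha, -0.17 for Pdk1 and 0.020 for Pkm. The range within white adipose exceeded the difference between sites for 26 of the 31 genes (83.9%), against 82.6% of all genes.

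**Figure D3:**
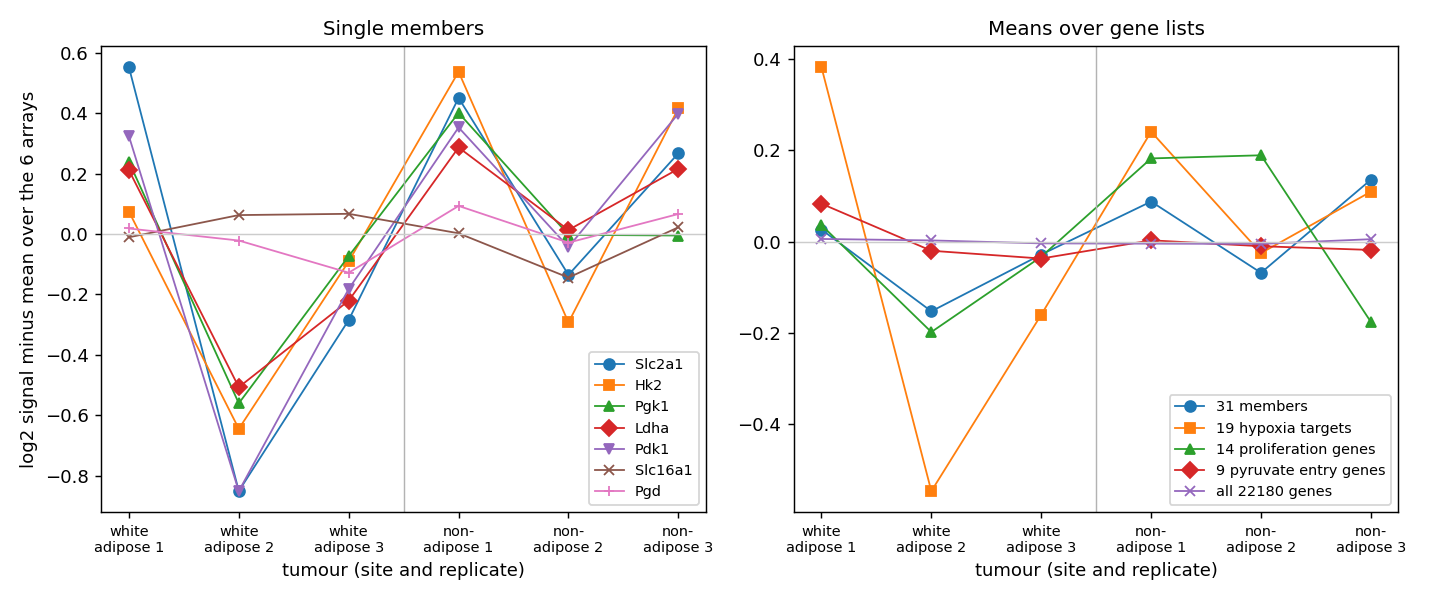
Log2 signal of each tumour minus the mean over the 6 arrays, for 7 single genes (left) and for means over gene lists (right), with the white adipose tumours left of the non-adipose tumours. Lines only link points of 1 gene or list and imply no order of replicates; Slc2a1, Hk2, Pgk1, Ldha and Pdk1 are lowest in white adipose replicate 2, and the 19 hypoxia targets have the same low point.

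The promoters of 5 of these genes are shown to set a known motif beside the array order. Slc2a1, Pgk1, Ldha and Pdk1 are among the genes with the widest range within white adipose and a low point in replicate 2, and Slc16a1 is a level gene of the same pathway. Each window is the RefSeq sequence of build GRCm38.p6 from 250 bases before to 50 bases after an annotated start, 300 bases in all, on the plus strand. Capitals mark each ACGTG or GCGTG, the core of hypoxia response elements, on either strand (CACGT and CACGC are the reverse complements). CACGTG, the E-box core that Myc binds, holds ACGTG on both strands.
Slc2a1, chr4:119108495-119108794: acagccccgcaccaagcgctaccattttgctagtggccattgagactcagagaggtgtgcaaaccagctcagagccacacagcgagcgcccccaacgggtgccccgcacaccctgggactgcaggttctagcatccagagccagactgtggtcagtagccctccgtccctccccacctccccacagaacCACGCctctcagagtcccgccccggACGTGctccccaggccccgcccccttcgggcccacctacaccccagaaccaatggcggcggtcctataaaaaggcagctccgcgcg
Pgk1, chrX:106186850-106187149: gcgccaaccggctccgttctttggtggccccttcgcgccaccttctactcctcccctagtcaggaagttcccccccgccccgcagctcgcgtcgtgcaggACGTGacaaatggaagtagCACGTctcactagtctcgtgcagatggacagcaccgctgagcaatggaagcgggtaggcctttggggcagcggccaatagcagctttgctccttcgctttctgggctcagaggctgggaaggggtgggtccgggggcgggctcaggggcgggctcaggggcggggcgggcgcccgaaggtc
Ldha, chr7:46845554-46845853: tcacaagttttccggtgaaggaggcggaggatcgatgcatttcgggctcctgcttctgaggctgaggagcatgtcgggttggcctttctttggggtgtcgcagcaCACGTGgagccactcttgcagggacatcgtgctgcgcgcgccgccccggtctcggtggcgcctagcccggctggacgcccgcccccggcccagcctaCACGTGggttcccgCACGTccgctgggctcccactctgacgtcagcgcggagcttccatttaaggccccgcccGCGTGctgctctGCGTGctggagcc
Pdk1, chr2:71872974-71873273: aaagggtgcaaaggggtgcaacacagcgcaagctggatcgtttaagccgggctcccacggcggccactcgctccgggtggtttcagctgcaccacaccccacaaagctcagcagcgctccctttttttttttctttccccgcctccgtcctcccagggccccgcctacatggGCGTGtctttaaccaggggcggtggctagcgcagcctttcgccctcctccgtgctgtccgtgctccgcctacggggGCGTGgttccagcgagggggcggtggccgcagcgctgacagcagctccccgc
Slc16a1, chr3:104638414-104638713: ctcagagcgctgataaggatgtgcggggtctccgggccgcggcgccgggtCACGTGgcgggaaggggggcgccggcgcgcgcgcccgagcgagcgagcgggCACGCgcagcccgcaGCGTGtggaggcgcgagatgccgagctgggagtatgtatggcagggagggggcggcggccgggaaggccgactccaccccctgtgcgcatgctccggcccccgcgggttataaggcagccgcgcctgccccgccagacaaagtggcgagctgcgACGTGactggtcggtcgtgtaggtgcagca
The strands were counted apart, so that each CACGTG counts as 2 matches. Ldha had 7 matches of either core in this window, Slc16a1 had 5, and Slc2a1, Pgk1 and Pdk1 had 2 each. Slc16a1, the level gene, thus held more matches than Slc2a1. A further window of Ldha, at another annotated start and not shown, had 2 matches, and a further window of Pdk1 had 0. Of the 31 genes 30 had at least 1 window (all except Slc2a3), with 43 windows in all. ACGTG was present in 20 of the 43 windows (46.5%), against 19.6% of 32851 RefSeq promoter windows, and either core was present in 34 (79.1%), against 43.8%. The windows of these genes were richer in G and C (median 60.7%) than all windows (52.7%), and the part of base composition in these shares was not tested. Among the genes lowest in white adipose replicate 2, ACGTG was in 9 of 18 windows, and among the others in 11 of 25. Either core was in 13 of the 18 windows, and among the others in 21 of 25. A match describes the letters only and was not tested for binding.

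Genes known to respond to oxygen but outside glycolysis shared the low tumour of many pathway genes. Of 19 measured of 22 non-glycolytic hypoxia targets, 16 had a lower mean in white adipose (84.2%), against 50.2% of all genes. Of the 19, 16 were lowest in white adipose replicate 2, against 15.6% of all genes. The highest array was white adipose replicate 1 for 10 and non-adipose replicate 1 for 5, against 4 and 13 of the 31 pathway genes. Over all genes these shares were 19.4% and 14.9%. The array means of the hypoxia targets were 8.80, 7.87 and 8.25 in white adipose and 8.66, 8.39 and 8.52 in non-adipose tumours, and the median difference was -0.21. Car9, the acid-handling carbonic anhydrase, read 8.86, 7.31 and 8.15 in white adipose, against 9.20, 9.06 and 8.47 in non-adipose tumours (difference -0.80 ± 0.41, limma, adjusted p = 0.936), and the difference was -0.40 without white adipose replicate 2 and -1.18 without replicate 1. Hilpda, a lipid droplet protein, differed by -0.28 ± 0.11 and was the only gene of this list with an unadjusted limma p under 0.05 (adjusted p = 0.936). Hif1a, the oxygen-regulated subunit, read 9.51, 9.17 and 9.27 in white adipose, against 9.43, 9.06 and 9.29 in non-adipose tumours (difference 0.056 ± 0.13). Its order within white adipose was that of Slc2a1, its lowest array was non-adipose replicate 2, and it is controlled mainly at the level of protein. Epas1, the related subunit prominent in endothelium, read 7.21, 8.60 and 8.09 in white adipose, against 7.14, 7.07 and 7.85 in non-adipose tumours (difference 0.61 ± 0.39), with white adipose replicate 2 the highest of the 6. Of the oxygen-sensing hydroxylases, Egln1 differed by -0.20 ± 0.12 and Egln3 by 0.30 ± 0.18.

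Among regulators of glycolysis, 10 of 14 measured genes had a lower mean in white adipose, against 50.2% of all genes, with a median difference of -0.038. Myc read 8.89, 8.40 and 8.73 in white adipose, against 9.20, 8.76 and 9.05 in non-adipose tumours (difference -0.33 ± 0.16, limma, adjusted p = 0.936). White adipose replicate 1 lay above 1 of the non-adipose tumours, so the sites overlapped. Ppargc1a, a coactivator of mitochondrial genes, was very dim and differed by -0.48 ± 0.30. All 14 measured proliferation genes had a lower mean in white adipose, against 50.2% of all genes, and none had an unadjusted limma p under 0.05. Their array means were 9.25, 9.01 and 9.18 in white adipose and 9.39, 9.40 and 9.04 in non-adipose tumours. Non-adipose replicate 3 thus lay below white adipose replicates 1 and 3. White adipose replicate 2 was the lowest array for 7 of the 14 and non-adipose replicate 1 the highest for 6, against 14 and 13 of the 31 pathway genes. Over all genes these shares were 15.6% and 14.9%. The part of proliferation in the order of the pathway genes was not tested. Pcna, the DNA clamp, differed by -0.25 ± 0.12 and Mcm3, a replication helicase subunit, by -0.15 ± 0.061, while Mki67, the Ki-67 proliferation antigen, differed by -0.059 ± 0.13.

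Isozymes that carry out the same step were compared as the change in their difference within each tumour, which removes any shift common to the array. Of 12 pairs, 10 were measured, and with 3 tumours at each site the exact permutation test cannot give a two-sided p below 0.1. Ldha minus Ldhb was 4.24, 3.58 and 3.89 in white adipose, against 4.42, 4.26 and 4.27 in non-adipose tumours, a shift of -0.42 (exact permutation p = 0.1, adjusted p = 0.5 over the 10 pairs). The groups did not overlap, but Ldhb is dim and nearly level, so that this shift is close to that of Ldha alone (-0.34). Pfkl minus Pfkm was 2.05, 1.58 and 2.02 in white adipose, against 2.25, 2.06 and 2.14 in non-adipose tumours, a shift of -0.26 (exact permutation p = 0.1, adjusted p = 0.5), again with no overlap. Without white adipose replicate 2 these shifts were -0.25 and -0.11. The other 8 pairs overlapped, and their exact permutation p lay between 0.2 and 1. Slc16a3 shifted by -0.19 against Slc16a1, Hk2 by -0.35 against Hk1, Slc2a1 by -0.44 against Slc2a3 and Pdk1 by -0.50 against Pdk2. White adipose replicate 2 carried the last pair of shifts, which were -0.13 for Slc2a1 against Slc2a3 and -0.043 for Pdk1 against Pdk2 without it, and -0.78 and -0.90 without white adipose replicate 1. Hk2 against Hk1 was -0.16 without non-adipose replicate 1. Pfkl and Pfkp kept a shift of 0.0036, and Pdk1 and Pdk4, which had nearly the same mean difference, a shift of 0.0026. The inducible Pfkfb3 shifted by -0.25 against Pfkfb2, or -0.069 when non-adipose replicate 3 was left out. Pfkfb4 shifted by -0.17 against Pfkfb2, or -0.057 when white adipose replicate 1 was left out.

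**Figure D4:**
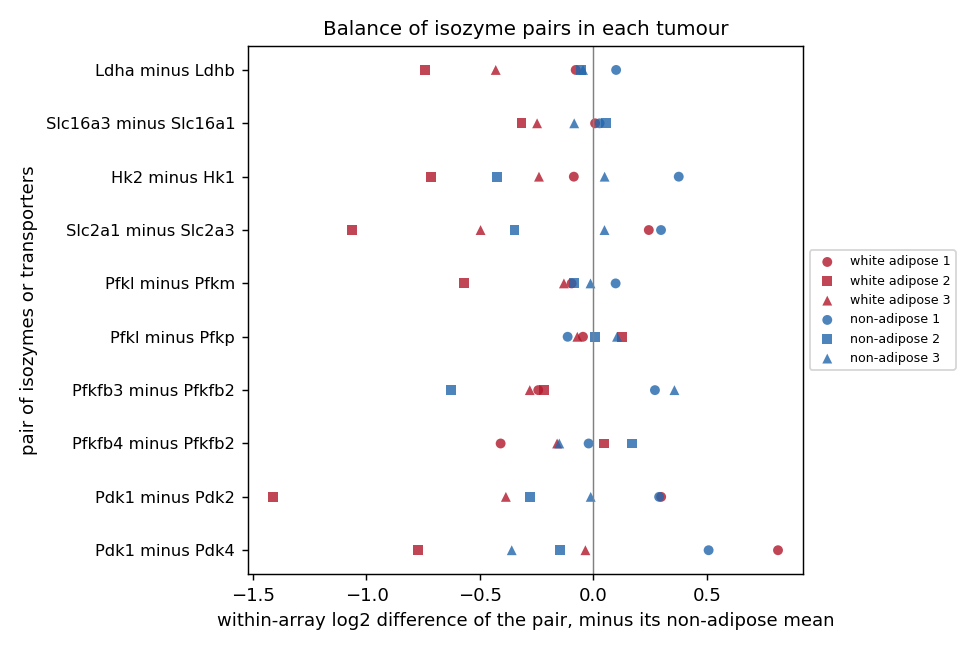
Log2 signal of the first isozyme minus the second in each tumour, shown relative to the non-adipose mean of that pair (horizontal axis, log2), for the 10 measured pairs. Each point is 1 tumour, red for white adipose and blue for non-adipose, and its shape gives the replicate number; the sites do not overlap for Ldha minus Ldhb and for Pfkl minus Pfkm.

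Genes that feed or drain the pathway were mostly level. Of 15 measured genes of other glucose transport and hexose entry, the mean in white adipose was lower for 7 and higher for 8 (median difference 0.018). Slc2a4, the insulin-responsive transporter of fat and muscle, differed by 0.076 ± 0.085, Slc2a8, an intracellular transporter, by 0.18 ± 0.078 and Slc2a5, the fructose transporter, by -0.10 ± 0.071. Of 17 other glycolytic isozymes and gluconeogenic genes, 10 had a lower mean (median difference -0.017). Pgam2, the muscle mutase, read 5.14, 5.06 and 5.06 in white adipose, against 5.17, 4.83 and 5.20 in non-adipose tumours (difference 0.017 ± 0.11), and Eno3, the muscle enolase, differed by 0.0076 ± 0.11. Fbp1, which runs the phosphofructokinase step backwards, differed by -0.24 ± 0.13, and G6pc3, a glucose phosphatase, by 0.17 ± 0.10. Tigar, which removes the activator of phosphofructokinase, differed by -0.043 ± 0.076.

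On the mitochondrial side of the gate, the mean in white adipose was lower for 4 and higher for 5 of 9 genes of pyruvate dehydrogenase and pyruvate entry (median difference 0.0064). Pdha1, the catalytic subunit that the kinases phosphorylate, differed by 0.0064 ± 0.077, and the phosphatases Pdp1 and Pdp2, which undo that phosphorylation, by 0.023 ± 0.074 and 0.076 ± 0.080. Mpc1, a subunit of the mitochondrial pyruvate carrier, read 9.57, 9.54 and 9.42 in white adipose, against 9.34, 9.43 and 9.37 in non-adipose tumours (difference 0.13 ± 0.067, limma, adjusted p = 0.936). All 7 other lactate and monocarboxylate genes had a lower mean in white adipose, against 50.2% of all genes, none at an unadjusted limma p under 0.05. They included Bsg (-0.070 ± 0.070), the chaperone of the lactate transporters, and Slc16a7 (-0.26 ± 0.15), a high-affinity monocarboxylate transporter. Among 9 other pentose phosphate and ribose genes, 8 had a lower mean, against 50.2% of all genes (median difference -0.072). Prps1 and Prps2, which activate ribose phosphate for nucleotide synthesis, differed by -0.12 ± 0.069 and -0.17 ± 0.080. Of 10 measured glycogen genes, 8 had a lower mean, against 50.2% of all genes. Gys1, the non-hepatic glycogen synthase, read 8.998, 8.17 and 8.39 in white adipose, against 9.01, 8.75 and 8.99 in non-adipose tumours (difference -0.40 ± 0.22), with the same low tumour as Pgk1. Gyg, the glycogen primer glycogenin, differed by -0.10 ± 0.057.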

How the data were processed

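Total RNA was extracted, checked for integrity, purified with DNase treatment and labelled as biotin cDNA with a whole-transcript kit, per the labels' protocols. The submitters' processing notes name Affymetrix Expression Console. How it summarised and normalized the probes, and its version, is not given in the sources used here. As deposited, the log2 signals (41345 probe sets, 6 arrays, no missing value) were used unchanged. Probe sets annotated to exactly 1 symbol numbered 23521, to several 1814 and to none here 16010; of the first, the one with the highest mean stood for each of 22180 genes, 1082 of which had several. limma 3.58.1 in R 4.3.3 (lmFit, eBayes) compared 3 white adipose with 3 non-adipose tumours over all genes, with Benjamini-Hochberg adjustment at 0.05. Its run on simulated data, with independent noise of equal spread on every array, checked the code and not the precision reached here. The number of arrays limits the precision, and limma p-values set each difference against the spread between these tumours, moderated over all genes. Isozyme pairs were compared by exact permutation. The members and gene lists were chosen with earlier results of these data known. Text names every measured member, the 2 genes of smallest p in each pathway list and a set of named regulators and markers; marker lists are otherwise given as lists. The rule also asked for Mpc2, which had no probe set here. Promoter windows came from RefSeq (GRCm38.p6). Alternatives were array medians subtracted, quantile normalization, mean of all probe sets, dimmest 33.3% of genes left out, array weights, replicate block, trend and robust fits, and each tumour left out.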

Additional observations from a re-analysis of the deposited data

How the results depend on the processing

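No gene passed an adjusted p of 0.05 under any of the 13 alternatives, the members included. Whether the replicate numbers pair the tumours is not known. In their deviations from site means, same-numbered tumours correlated at 0.14, 0.064 and 0.064. Differently numbered tumours correlated at -0.18 to 0.086. With 3 tumours a site, such correlations over all genes cannot decide whether the tumours were paired. With the number as a replicate block, 6 members were lower at an unadjusted limma p under 0.05 (2.60% of all genes), with a smallest adjusted p of 0.885. Array weights gave 3 lower (4.03% of all genes) and 1 higher (3.28%). Leaving out each tumour gave 0 to 6 lower, 0 to 1 higher, 2 to 10 without overlap and lower, and 1 to 3 without overlap and higher. In that order, the shares of all genes were 1.51% to 4.42%, 1.34% to 3.69%, 7.42% to 12.1% and 6.35% to 11.7%. Without non-adipose replicate 2, 10 members were lower without overlap (7.94% of all genes), as were 10 without white adipose replicate 1 (12.1%). Quantile normalization and the mean of all probe sets each left 1 member lower without overlap, against 5.32% and 3.99% of all genes.

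With all arrays, 4 of 215 member values turned direction. Small differences turned under subtracted medians (Pfkfb4 -0.0059, Pgls -0.0067, Eno3 -0.0016, Pdha1 -0.0028), under the mean of all probe sets (Pgls -0.032, Hif1a -0.041) and under array weights (Taldo1 0.013, Eno3 -0.0087, Hif1a -0.011, Pdp1 -0.00040, Pgam2 -0.0037, Ptprc 0.073). The median of the pentose phosphate genes was 0.0064 under array weights, and that of the pyruvate dehydrogenase kinases -0.054 with the dimmest 33.3% of genes, Pdk4 among them, left out. Leaving out tumours spanned 0 for Pdk2 (-0.12 to 0.15), Pfkfb3 (-0.42 to 0.18), Pfkfb4 (-0.093 to 0.12), Pfkm (-0.038 to 0.045), Pgls (-0.0053 to 0.0078), Pkm (-0.22 to 0.020) and Taldo1 (-0.081 to 0.039). It also did so for Adipoq (-0.023 to 0.063), Eno3 (-0.080 to 0.12), Epcam (-0.066 to 0.27), Hif1a (-0.043 to 0.14), Mki67 (-0.19 to 0.021), Pdha1 (-0.038 to 0.069), Pdp1 (-0.022 to 0.070), Pgam2 (-0.10 to 0.083) and Ptprc (-0.26 to 0.15). The lactate median spanned -0.064 to 0.0079, the pentose phosphate median -0.081 to 0.0064, Pdk1 minus Pdk4 -0.40 to 0.39 and Pfkl minus Pfkp -0.058 to 0.056. The cause of these turns was not tested. The probe sets of Ldhb and Pdk4 are the dimmest named members by percentile, no background level was measured, and 3 tumours a site limit every estimate.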

Other observations

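Txnip and Bnip3 were singled out after their values were seen. Txnip, an arrestin-like protein that lowers glucose uptake and whose transcription follows glucose supply, read 9.19, 10.09 and 10.06 in white adipose, against 9.06, 8.74 and 9.96 in non-adipose tumours (difference 0.53 ± 0.38, SE, limma, adjusted p = 0.936), and the difference was 0.27 without non-adipose replicate 2 and 0.88 without non-adipose replicate 3. White adipose replicate 1, the high tumour for Slc2a1, was the low white adipose tumour for Txnip. Bnip3, a mitophagy receptor induced by low oxygen, read 9.34, 7.61 and 8.25 in white adipose, against 9.15, 8.60 and 8.92 in non-adipose tumours (difference -0.49 ± 0.43, limma, adjusted p = 0.936), and the difference was -0.093 without white adipose replicate 2 and -0.96 without replicate 1. Its order within white adipose was that of Slc2a1, Pgk1, Ldha and Pdk1.

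All 5 measured T cell markers had a higher mean in white adipose, against 49.8% of all genes. Their array means were 6.24, 6.69 and 6.56 in white adipose and 5.89, 5.56 and 6.98 in non-adipose tumours, where replicate 3 exceeded every white adipose tumour. None of the 5 had an unadjusted limma p under 0.05. The share of cells behind these values was not measured.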
